A study of Mus musculus with 5 samples.

Results

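The nuclear genes for subunits of the 5 respiratory chain complexes were examined in a chromatin immunoprecipitation and sequencing (ChIP-seq) study of KLF5, a zinc-finger transcription factor, in mouse embryonic stem (ES) cells. Members were the autosomal protein-coding genes of the RefSeq GRCm38.p6 gene table whose symbol begins with Ndufa, Ndufb, Ndufc, Ndufs or Ndufv and a digit, with Uqcr, with Cox4 to Cox8, or with Atp5, together with Sdha, Sdhb, Sdhc and Sdhd. They numbered 84 of 20665 autosomal protein-coding genes, with 38 in complex I, 4 in complex II, 8 in complex III, 17 in complex IV and 17 in complex V. X-linked genes (3) and pseudogenes (18) with such symbols were not members.

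Wild-type ES cells from C57B6/J mice that overexpressed V5-tagged KLF5 gave a V5 immunoprecipitate, a mouse IgG immunoprecipitate and an input library. The untagged controls were ES-D3, an established line of wild-type mouse ES cells, which gave a V5 immunoprecipitate and an input. Each of these 5 groups is 1 library, so no value has a replicate check and no p-value is given. The run name in the header of the untagged V5 list names another ES line, JM8.N4, so which line that control is remains uncertain. The KLF5 that was mapped was tagged and overexpressed in every library it came from. The sources used here do not give what drives the transgene or whether the tagged line is 1 clone. A peak list shows occupancy and not expression, so the ES cell label could not be checked against marker genes.

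The respiratory chain sits in the inner mitochondrial membrane. Complexes I and II pass electrons from NADH and succinate to ubiquinone, complex III passes them on to cytochrome c, complex IV passes them to oxygen, and complex V, the ATP synthase, uses the resulting proton gradient to make ATP. All the genes described here are nuclear, and several transcription factors, among them NRF1, GABPA (an ETS family factor) and YY1, are known to bind promoters of many of them.

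The promoters printed here show what the members look like at their start sites. Each stretch holds the last 150 bases before the annotated start site, read 5′ to 3′ on the strand of the gene, from the RefSeq promoter table (GRCm38.p6, the assembly that mm10 names). Capitals mark matches, on either strand, to the KLF motif GGGNGTGG, the GC box GGGCGG, which is bound by SP and KLF factors, or the NRF1 motif (GCGC, any base, then TGCGC), where the match lies wholly inside the stretch. The first 4, from complexes V, I, II and III, have a V5-KLF5 summit within 100 bp of the start site, with fold enrichments over input of 14.3, 11.5, 9.15 and 3.77.
Atp5g2 promoter (chr15:102671048-102671197, minus strand): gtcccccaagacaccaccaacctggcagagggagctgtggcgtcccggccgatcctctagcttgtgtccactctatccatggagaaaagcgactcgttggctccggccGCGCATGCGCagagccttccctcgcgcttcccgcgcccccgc
Ndufa5 promoter (chr6:24527691-24527840, minus strand): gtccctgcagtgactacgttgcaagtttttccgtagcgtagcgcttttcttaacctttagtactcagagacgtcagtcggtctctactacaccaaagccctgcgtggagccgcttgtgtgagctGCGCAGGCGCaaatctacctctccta
Sdha promoter (chr13:74350241-74350390, minus strand): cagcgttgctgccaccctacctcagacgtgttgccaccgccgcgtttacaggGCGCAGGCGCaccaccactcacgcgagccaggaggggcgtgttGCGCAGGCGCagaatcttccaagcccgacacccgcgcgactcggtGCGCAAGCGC
Uqcrfs1 promoter (chr13:30545317-30545466, minus strand): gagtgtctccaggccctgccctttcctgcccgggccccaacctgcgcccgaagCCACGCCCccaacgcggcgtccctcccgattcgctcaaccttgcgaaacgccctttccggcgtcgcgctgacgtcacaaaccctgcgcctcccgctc
Cox5a and Cox7a1 are subunit genes of complex IV with a summit at the start site, the first rich and the second poor in CpG. Ndufs5 and Cox8b have no summit within 1 kb.
Cox5a promoter (chr9:57521082-57521231, plus strand): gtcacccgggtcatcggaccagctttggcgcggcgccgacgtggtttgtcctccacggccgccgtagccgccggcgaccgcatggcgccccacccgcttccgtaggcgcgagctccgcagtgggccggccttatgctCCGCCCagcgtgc
Cox7a1 promoter (chr7:30184021-30184170, plus strand): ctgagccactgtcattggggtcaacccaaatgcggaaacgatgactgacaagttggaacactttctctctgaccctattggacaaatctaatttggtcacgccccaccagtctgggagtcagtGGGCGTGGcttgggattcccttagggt
Ndufs5 promoter (chr4:123718187-123718336, minus strand): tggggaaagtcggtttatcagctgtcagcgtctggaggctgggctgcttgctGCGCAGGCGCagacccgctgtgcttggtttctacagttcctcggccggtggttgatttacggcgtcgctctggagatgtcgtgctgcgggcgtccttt
Cox8b promoter (chr7:140900447-140900596, minus strand): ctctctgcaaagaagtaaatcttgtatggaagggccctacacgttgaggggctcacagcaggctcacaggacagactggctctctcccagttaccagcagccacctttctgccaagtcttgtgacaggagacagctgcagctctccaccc
In the Atp5g2 stretch the NRF1 match lay 42 to 33 bases before the start site, and a GC box that crosses the start site is not capitalised. Sdha held 3 NRF1 matches, beginning 98, 55 and 10 bases before its start site. Ndufs5 held the same kind of match 98 bases before its start site and had no summit within 10 kb. In Cox7a1 the capitals mark a KLF match 27 to 20 bases before the start site.

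The V5 list of the V5-KLF5 cells held 45378 peaks from 23.2 M tags kept of 28.8 M that the peak caller read. The IgG list of the same cells held 3 peaks from 24.5 M tags kept of 31.9 M, and the V5 list of the untagged cells held 0 peaks from 21.8 M of 28.2 M. Within 10 kb of the members there were 194 V5-KLF5 peaks, against 0 in the IgG list and 0 in the list of the untagged cells. No peak lay within 10 kb of more than 1 member. No peak is therefore counted for 2 members, and the control lists add none.

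A V5-KLF5 summit, the highest point of a peak, lay within 1 kb of an end of 62 of 84 members (73.8%, exact Clopper-Pearson 95% interval 63.1 to 82.8). Among all autosomal coding genes 52.5% had one. Within 10 kb the count was 75 of 84 members (89.3%, 80.6 to 95.0), against 70.7% of all autosomal coding genes. The intervals cover counting error only. Genes are not replicates of each other, and no test of the difference was run.

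The summits at members were common but not strong. Fold enrichment here is the authors' value for each peak, the ratio of the tag pileup at the summit to the input background. Over the 62 members the strongest summit within 1 kb had a median fold enrichment of 5.46, with quartiles of 4.59 and 7.28 and a range of 2.66 to 14.3. Over the 10844 autosomal coding genes with such a summit the median was 6.13, with quartiles of 4.64 and 8.79 and a range of 2.19 to 58.7. A fold enrichment of at least 10 within 1 kb was found at 4 of 84 members (4.76%), against 9.53% of all autosomal coding genes. Within 10 kb it was found at 18 members (21.4%), against 20.4%. With a −log10 q-value of at least 10 required, 37 members (44.0%) had a summit within 1 kb, against 33.1%. So the members exceeded the background in the share with any summit within 1 kb. Their share with a strong one was lower within 1 kb, but it rests on 4 members, and within 10 kb it was near the background.

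The pileup at these summits had a median of 27 tags at members and 29 tags over all autosomal coding genes, on median input backgrounds of 3.83 and 3.55 tags. The background is the peak caller's estimate. Its lowest value at members, 3.10 tags, recurred at Ndufa5, Ndufs3, Ndufv1, Sdhc and others, so there it looks like a floor rather than a local input count. The median member summit ranked at 20779.5 of 45378 peaks by fold enrichment, where rank 1 is the strongest. Most members (54) had exactly 1 summit within 1 kb, 6 had 2, and 2 had more: Ndufa4l2 with 4 and Atp5d with 3. Within 10 kb the median number of summits was 2 for members and 1 for all autosomal coding genes.

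**Figure D1:**
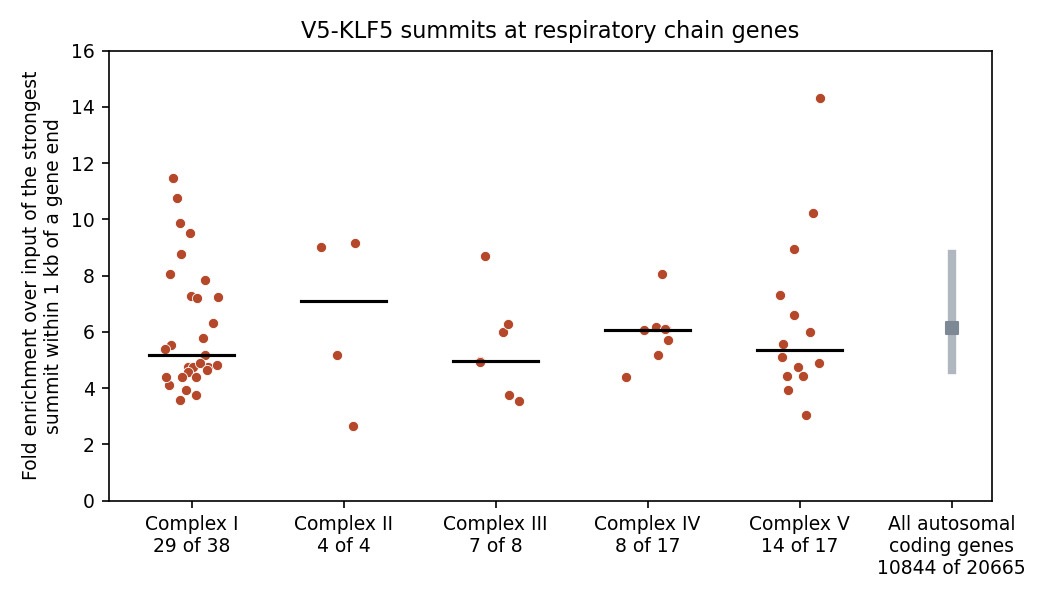
Fold enrichment over input (y axis) of the strongest V5-KLF5 summit within 1 kb of a gene end, with 1 point for each member that has one, by complex. Black lines are medians, and the grey square and bar are the median and quartiles of all autosomal coding genes. The highest points are Atp5g2 at 14.3, Ndufa5 at 11.5, Ndufa11 at 10.8 and Atp5pb at 10.2, and the lowest is Sdhd at 2.66.

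Members had the larger share in every window tried. Within 200 bp of an end the shares were 45.2% of members and 31.2% of all autosomal coding genes. Within 50 kb they were 96.4% and 83.3%. The median fold enrichment of members was below that of all autosomal coding genes in all 8 windows, from 5.46 against 6.10 within 200 bp to 9.64 against 10.1 within 50 kb.

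**Figure D2:**
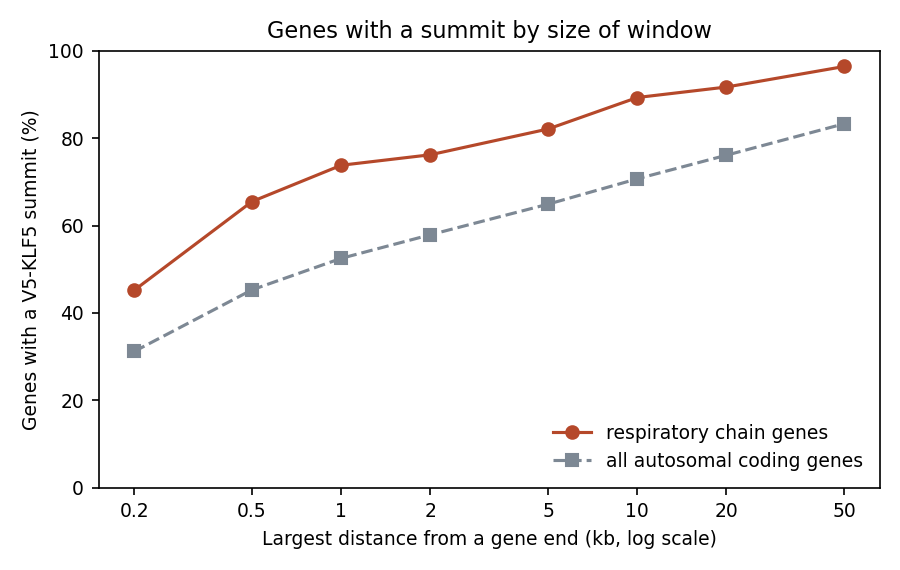
Percentage of genes with a V5-KLF5 summit (y axis) by the largest distance allowed from a gene end (x axis, kb, log scale), for the 84 respiratory chain genes and all 20665 autosomal coding genes. The line of the respiratory chain genes lies above the other in each of the 8 windows, at 73.8% against 52.5% for 1 kb.

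Members are shorter than most genes, with a median length of 7.23 kb against 17.5 kb, and a window at both ends covers more of a short gene. Among genes under 5 kb, 16 of 27 members (59.3%) had a summit within 1 kb, against 31.7%. Among genes of 5 to 20 kb the count was 38 of 46 (82.6%), against 56.1%. Among genes over 20 kb it was 8 of 11 (72.7%), against 59.9%. Within 10 kb the member shares in these length classes were 85.2%, 93.5% and 81.8%, against 45.5%, 75.3% and 79.6%. The member share was the larger one in each length class, by the least in the longest genes at 10 kb.

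Complex I takes electrons from NADH, and its core subunits hold the flavin and the iron-sulfur clusters. A summit lay within 1 kb of 29 of 38 complex I genes (76.3%), against 52.5% of all autosomal coding genes, with a median fold enrichment of 5.18. Within 10 kb the count was 33 (86.8%), against 70.7%. The strongest was at Ndufa5, an accessory subunit of the matrix arm, with a pileup of 46 tags, a fold enrichment of 11.5 and a −log10 q-value of 34.3. Its summit lay 71 bp inside the gene (mm10 chr6:24518662-24527690) at its start. Ndufa11, an accessory subunit of the membrane arm, followed with a fold enrichment of 10.8 and a pileup of 51 tags 221 bp inside its start. Ndufb6, another accessory subunit of the membrane arm, had a fold enrichment of 9.86 at 62 bp. These 3 summits lay at start sites, and the nearest coding gene end was that of the member itself.

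Core subunit genes of complex I with a summit within 1 kb had a median fold enrichment of 6.78. Among 29 accessory subunit genes 22 (75.9%) had one within 1 kb, against 52.5% of all autosomal coding genes, with a median of 4.85. Within 10 kb 25 (86.2%) had one, against 70.7%. Ndufv1, which binds NADH and the flavin, had a fold enrichment of 9.52 at 71 bp. Ndufs3 had 8.79 at 36 bp, but that summit lay only 17 bp from an end of Kbtbd4. Ndufs1, the largest subunit and a carrier of iron-sulfur clusters, had 7.25 at 220 bp outside the gene, nearer to Eef1b2. The iron-sulfur proteins Ndufs7, Ndufv2 and Ndufs8 had weaker summits, at 6.31, 4.64 and 4.40. The named core genes thus ranged from 4.40 to 9.52 within 1 kb.

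For some of these genes the strongest nearby summit was not the one at the start. Ndufv2 had 4.64 at its start and 19.0 at 2653 bp outside it, a summit whose nearest coding gene end was that of Ndufv2. Ndufs1 had a fold enrichment of 15.4 at 5420 bp outside its other end, again with no nearer end of a coding gene. Over all members, the strongest summit within 10 kb lay more than 1 kb away at 34 genes, and at 22 of these it was nearer to an end of another coding gene. Those 2 counts are given for members alone. Of all strongest summits within 10 kb, 60% at members were nearest to an end of the gene itself, against 70.2% over all autosomal coding genes.

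Complex II oxidises succinate and is the only complex of the chain with no subunit encoded in mitochondrial DNA. All 4 had a summit within 1 kb, against 52.5% of all autosomal coding genes, with a median of 7.10. Sdha, the flavoprotein, had a pileup of 52 tags and a fold enrichment of 9.15, 2 bp inside its start (mm10 chr13:74322255-74350240). Sdhc, a membrane anchor subunit, had a fold enrichment of 9.03 with 36 tags at 111 bp. Sdhb, the iron-sulfur protein, had 5.18 with 26 tags at 56 bp. Sdhd, the other anchor, had 2.66 with 18 tags at 70 bp and a −log10 q-value of 2.48. The summits of complex II lay within 111 bp of a gene end, yet they spanned ranks 7216 to 45097 of the list.

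Complex III had a summit within 1 kb at 7 of 8 genes (87.5%), against 52.5% of all autosomal coding genes, with a median of 4.97. Within 10 kb all 8 had one, against 70.7%. Uqcrc2, a core protein, had the strongest, with a fold enrichment of 8.69 and 36 tags 13 bp outside the gene. Uqcrh, the hinge protein, had 6.28 at 757 bp, nearer to Lrrc41. Uqcrc1, the other core protein, had 6.00 at its 3′ end and a weaker summit of 3.77 at its start site. Uqcrfs1, the Rieske iron-sulfur protein, had 3.77 with 23 tags 39 bp before its start site. Uqcr11, a small accessory subunit, had none within 1 kb, and a fold enrichment of 11.9 at 4217 bp belonged to a summit 751 bp from Mbd3. Apart from Uqcrc2, no complex III gene had a fold enrichment above 6.28 within 1 kb.

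Complex IV reduces oxygen, and several of its subunits exist as ubiquitous and tissue-restricted isoforms. A summit lay within 1 kb of 8 of its 17 genes (47.1%, 23.0 to 72.2), against 52.5% of all autosomal coding genes, with a median of 6.09. Within 10 kb the count was 14 (82.4%), against 70.7%. The 1 kb share was thus near that of all autosomal coding genes, and 2 genes counted without a summit, Cox5a and Cox7a2, had one at a start site inside the gene entry. The strongest within 1 kb was at Cox7a1, an isoform of heart and skeletal muscle, with a pileup of 38 tags and a fold enrichment of 8.07, 52 bp before its start (mm10 chr7:30184171-30186030). Cox5b followed with 6.16 at 76 bp, and Cox6b1, a subunit facing the intermembrane space, with 6.11 at 635 bp. A much stronger summit within 10 kb of Cox6b1, with a fold enrichment of 22.2, lay 9087 bp away and nearer to Upk1a.

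Among tissue-restricted isoform genes 3 of 8 (37.5%) had a summit within 1 kb and 5 (62.5%) within 10 kb. For ubiquitous ones the counts were 3 of 6 (50%) and 5 of 6 (83.3%). The shares of all autosomal coding genes were 52.5% and 70.7%, and lists this short do not separate from them. Cox4i2, the isoform linked to lung and to hypoxia, had none within 1 kb and 10.6 at 7333 bp, against 6.10 at 359 bp for Cox4i1. Cox6a2, the heart and muscle isoform, had none within 10 kb, against 5.18 at 8 bp for Cox6a1. Cox6b2, the testis isoform, had 6.07 at its 3′ end, in a peak of 1465 bp that also covers its start, against 6.11 for Cox6b1. The testis genes Cox7b2 and Cox8c had none within 10 kb. Cox8b, of heart and muscle, had 4.12 at 8304 bp, and Cox8a had 7.54 at 8873 bp, a summit 1 bp from an end of Otub1. Ndufa4l2, which is induced in hypoxia, had 7.29 at 436 bp, nearer to Shmt2, and 5.06 with 39 tags at 48 bp from its other end. Its ubiquitous relative Ndufa4, once placed in complex I and now assigned to complex IV, had no summit closer than 189878 bp. Cox7a1 had 8.07 at its start, against 8.36 at the promoter-table start site of Cox7a2, which lies inside the Cox7a2 entry. Within 1 kb of a gene end the ubiquitous gene alone had a summit in the Cox4i and Cox6a pairs, and the restricted gene alone in the Cox7a and Ndufa4 pairs.

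**Figure D3:**
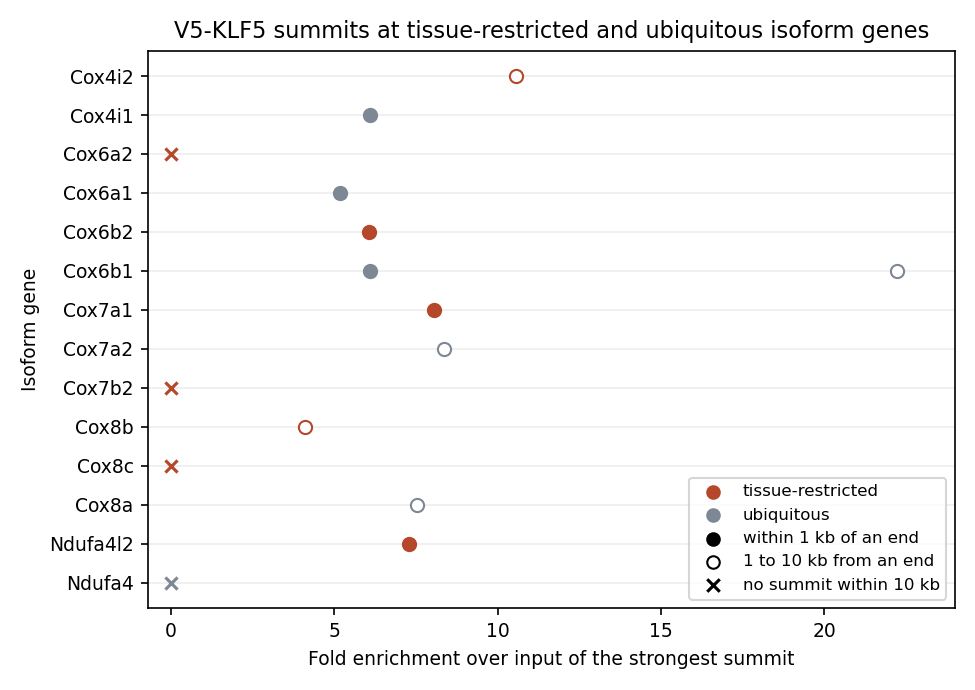
Fold enrichment over input (x axis) of the strongest V5-KLF5 summit at each isoform gene (y axis), for tissue-restricted and ubiquitous genes. Filled points are summits within 1 kb of a gene end, open points are summits at 1 to 10 kb and crosses, set at 0 only to place them, are genes with none within 10 kb: Cox6a2, Cox7b2, Cox8c and Ndufa4.

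Complex V had a summit within 1 kb at 14 of 17 genes (82.4%), against 52.5% of all autosomal coding genes, with a median of 5.36. Within 10 kb 16 (94.1%) had one, against 70.7%. Atp5g2, which encodes subunit c of the rotor ring, had the strongest summit within 1 kb of any member, with a pileup of 60 tags, a fold enrichment of 14.3 and a −log10 q-value of 50.1. It lay 28 bp inside the start of the gene (mm10 chr15:102662868-102671047) and ranked 2163 in the list. Atp5pb, subunit b of the stalk, had 72 tags and 10.2, but its summit at 129 bp was nearer to Wdr77. Atp5b, the catalytic beta subunit, had 44 tags and 8.95 at 56 bp inside its start. The alpha subunit gene Atp5a1 had 4.88 at 436 bp, nearer to Haus1, and the gamma subunit gene Atp5c1 had 4.77 at 32 bp, nearer to Kin. The epsilon subunit gene Atp5e had 6.00 at 54 bp.

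Atp5g1, Atp5g2 and Atp5g3 encode the same mature subunit c and differ in their import sequences. Their strongest summits within 1 kb differed: Atp5g2 had 14.3, Atp5g1 had 3.93 at 516 bp, and Atp5g3 had none within 1 kb of an end of its gene entry. Atp5g3 had a summit of 6.43 at 1125 bp inside the entry, 13 bp before the start site in the promoter table. For Atp5g1 a summit of 17.3 lay 7393 bp away, 36 bp from an end of Ube2z. Atp5d, the delta subunit gene, had 7.32 at its 3′ end and 14.9 at 3348 bp, both nearer to Midn. It also had weaker summits inside its start, of 3.93 with 24 tags at 6 bp and 4.68 with 36 tags at 799 bp. A summit of 12.1 with 60 tags lay inside the Atp5d entry, at −789 bp (upstream) from a start site in the promoter table that itself lies 3577 bp inside the entry.

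No summit lay within 10 kb of 9 members. They were Ndufa4, the accessory subunit genes Ndufa9 (72679 bp to the nearest summit) and Ndufs5 (25133 bp), Ndufb4b (26633 bp) and Ndufb4c (17477 bp), the complex IV genes Cox6a2 (31892 bp), Cox7b2 (109942 bp) and Cox8c (20678 bp), and Atp5md (15030 bp), a small membrane subunit of the ATP synthase. By their names Ndufb4b and Ndufb4c are copies of Ndufb4, and both entries are shorter than 500 bp. The treatment of reads with more than 1 match in the genome was not stated, so the lack of peaks at these copies is uncertain.

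A further 13 members had a summit within 10 kb but none within 1 kb of an end. Among them, besides genes given above, Cox6c had 13.7 at 6286 bp, Ndufb10 had 10.7 at 2117 bp and nearer to Rps2, Cox5a had 9.02 at 3822 bp and Cox7a2 had 8.36 at 4629 bp. Ndufs4, an accessory subunit gene, had 7.93 at 8977 bp, Atp5k had 4.88 at 6763 bp and 110 bp from Mfsd7a, and Ndufc1 had 4.29 at 7924 bp, nearer to Naa15. For Cox5a, Cox7a2 and Atp5g3 the distance reflects the gene entry, which begins well before the start site in the promoter table.

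At 47 of the 62 members (75.8%) the strongest summit within 1 kb was nearest to an end of the member itself, against 88% of all autosomal coding genes with such a summit. At 15 members it was nearer to an end of another coding gene. With summits counted only for the gene whose end is nearest, 49 members (58.3%) had one within 1 kb, against 47.7%. Of the strongest summits 34 lay inside the member and 28 outside it, and 26 lay within 100 bp of the end. The median distance was 173.5 bp, against 173 bp over all autosomal coding genes. For the genes whose strand is known, 47 of these summits were at the start and 4 at the 3′ end (Ndufv3, Uqcrc1, Cox6b2 and Atp5d). The splits by side, by end and at 100 bp are given for members alone. They do not set members apart from other genes. Whether a summit fell in an exon, an intron or a UTR could not be read from the gene table.

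Start sites were available for 67 members and 16457 autosomal coding genes. A summit lay within 1 kb of a start site in 53 members (79.1%), against 53.8%. The counts were 25 of 32 in complex I, 3 of 3 in complex II, 4 of 5 in complex III, 8 of 12 in complex IV and 13 of 15 in complex V. The strongest summit had a median fold enrichment of 5.18 at members and 6.21 over all autosomal coding genes, and reached 10 at 5 members (7.46%), against 9.69%. These were Atp5g2, Atp5d, Ndufa5, Ndufa11 and Atp5pb. The median distance from the start site, whichever the side, was 89 bp for members and 144 bp for all autosomal coding genes. The summit lay upstream in 26 members and downstream in 27, with a median signed distance of 2 bp, against −27 bp. Cox5a (9.02, 82 bp before the start site), Cox7a2 (8.36, 17 bp before) and Atp5g3 entered as bound at the start, while Cox6b2 did not, its nearest summit lying 1027 bp downstream of the start site. The Cox6b2 peak itself, from 4751793 to 4753257 on chromosome 7, covers that start site, at 4753094.

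**Figure D4:**
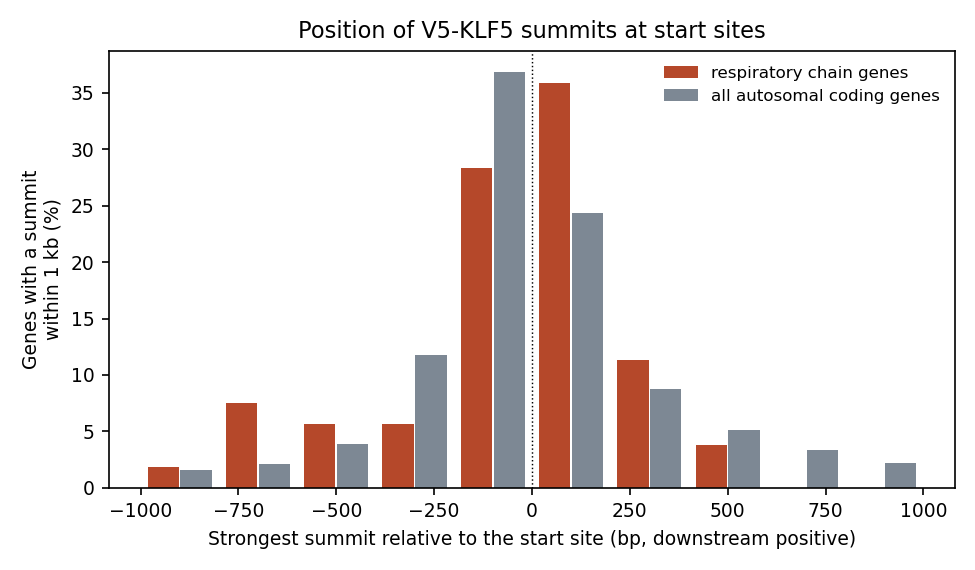
Position of the strongest V5-KLF5 summit relative to the start site (x axis, bp, downstream positive, bins of 200 bp) as a percentage of genes with a summit within 1 kb (y axis), for 53 respiratory chain genes and 8847 autosomal coding genes. The largest bin of the respiratory chain genes is the first 200 bp downstream (35.8%, against 24.3%), and that of all autosomal coding genes is the 200 bp upstream (28.3%, against 36.9%).

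Promoters of members are rich in CpG, and the share with a summit was larger among promoters with the higher CpG ratio. Whether CpG content accounts for the share at members was not tested. The CpG ratio, the observed over the expected number of CpG in the 300 bases from 250 before to 50 after the start site, had a median of 0.807 at members and 0.628 over all autosomal coding genes. It was at least 0.6 in 82.1% of members, against 52.3%. Among promoters with a ratio of at least 0.6, 45 of 55 members (81.8%) had a summit, against 83.1%. The median fold enrichment there was 5.54 at members and 6.37 over all autosomal coding genes, and 5 members (9.09%) reached 10, against 16%. Among promoters with a ratio under 0.6, 8 of 12 members (66.7%) had a summit, against 21.5%. CpG content was not equal in that class, with a median ratio of 0.520 at members and 0.234 over all autosomal coding genes. Within CpG-rich promoters the member share was thus close to the background, and the lower fold enrichment was still seen. The 0.6 threshold was chosen after these data were seen.

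Of the 12 members under that ratio, those with a summit were Cox7a1, Ndufc2, Ndufb2, Ndufb7, Ndufs8, Ndufa3, Sdhb and Atp5j2, with fold enrichments from 4.40 to 8.07. Cox7a1 had the lowest ratio of them, 0.333, and the highest fold enrichment. The 4 without a summit were Cox6b2, Cox7b2, Cox8b and Ndufb4b.

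Both strands of these promoter windows were searched for 6 motifs. They were the KLF motif GGGNGTGG, the GC box GGGCGG, the NRF1 motif given above, the ETS motif CCGGAAG, the YY1 motif AAGATGGC and the CCAAT box CCAAT. None of them contains another as written, although GC box and KLF matches can overlap in a promoter. A match describes letters and is not a binding site. Of the 67 members 13 (19.4%) held the KLF motif, against 21.9% of all autosomal coding genes, and 27 (40.3%) held a GC box, against 50.3%. The NRF1 motif was in 17 members (25.4%), against 7.39%, the ETS motif in 17 (25.4%), against 13.3%, and the YY1 motif in 10 (14.9%), against 3.59%. The CCAAT box was in 28 (41.8%), against 42.3%. Members thus held NRF1, ETS and YY1 matches in a larger share and GC boxes in a smaller one.

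Among promoters with a V5-KLF5 summit the GC box and KLF differences were larger, and those of the NRF1, ETS and YY1 motifs were smaller. A GC box was in 24 of 53 such members (45.3%), against 75.3% of all autosomal coding genes with a summit, and the KLF motif in 20.8%, against 29.4%. The NRF1 motif was in 15 (28.3%), against 11.9%, and the YY1 motif in 13.2%, against 4.95%. The ETS motif was in 24.5%, against 19.7%, and the CCAAT box in 45.3%, against 41.7%, the other way round from all promoters. Among promoters with a summit and a CpG ratio of at least 0.6, the GC box was in 48.9% of members, against 80.2%, and the KLF motif in 17.8%, against 28.7%. There the NRF1 motif was in 33.3%, against 14.1%, and the YY1 motif in 11.1%, against 5.67%. The ETS shares were 22.2% and 22.0%, and the CCAAT shares 40.0% and 41.9%, so the ETS difference was not seen within that class. GC content was not equal among promoters with a CpG ratio of at least 0.6. Its median was 59% at members and 64.7% over all autosomal coding genes, with or without a summit. Whether the GC box and KLF shares follow GC content was not tested. Among promoters that lacked a GC box, 29 of 40 members (72.5%) had a summit, against 26.6%. Among those that held one, 24 of 27 members (88.9%) had a summit, against 80.6%. Neither contrast was split by CpG ratio, which was under 0.6 in 17.9% of members and 47.7% of all autosomal coding genes. CpG content was thus not held equal in them. The Sdha promoter printed above lacks an exact match to the GC box and to the KLF motif in its whole window. Its printed stretch does hold GGGCGTGT, which differs from the KLF motif in the last letter alone. It had a summit with a fold enrichment of 9.15 at 2 bp from the start site. The Ndufa5 window holds a GC box from 3 to 8 bases after the start site, outside the printed stretch.

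**Figure D5:**
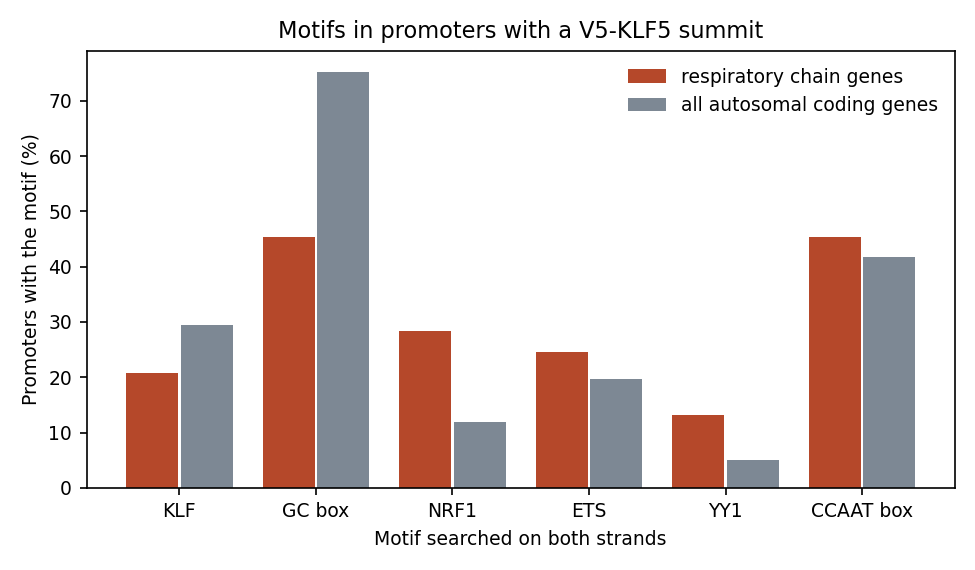
Percentage of promoters with a V5-KLF5 summit that hold each of 6 motifs (y axis), by motif (x axis), for 53 respiratory chain genes and 8847 autosomal coding genes. The GC box bars stand at 45.3% and 75.3%, and the NRF1 bars at 28.3% and 11.9%.

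Other genes of the pathway, 70 in all and all found in the gene table, were read in the same way. A summit lay within 1 kb of 59 (84.3%), against 52.5% of all autosomal coding genes, with a median fold enrichment of 6.10. Within 10 kb the count was 68 (97.1%), against 70.7%, with a median of 6.72. Assembly factor genes had one within 1 kb at 39 of 46 (84.8%), with a median of 6.07, and a fold enrichment of at least 10 at 11 (23.9%), against 9.53% of all autosomal coding genes. The strongest were Ndufaf5 with 15.9, Ndufaf4 with 14.6, both complex I assembly factors, and Bcs1l, the complex III assembly factor, with 14.3 and nearer to Zfp142. At this strength the subunit genes had 4 of 84 (4.76%). Of the lists described next, mitochondrial ribosomal protein genes had 11 of 78 (14.1%), electron carriers 1 of 7 (14.3%) and regulators 0 of 17. The differences between these lists were not tested.

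Electron carrier genes, taken with the acyl carrier Ndufab1, had a summit within 1 kb at 5 of 7 (71.4%), against 52.5% of all autosomal coding genes. Etfa, of the electron transfer flavoprotein, had 14.5, Cycs, somatic cytochrome c, had 6.35, and Etfb had 6.17. Etfdh and Ndufab1 had none within 10 kb. Regulators of respiratory genes and of mitochondrial DNA had one within 1 kb at 15 of 17 (88.2%), against 52.5%, with a median of 6.10. Within 10 kb the count was 17 of 17, against 70.7%. Esrra, a nuclear receptor that acts on respiratory genes, had 9.58, Ppargc1b, a coactivator, had 8.54, and Polg2, of the mitochondrial DNA polymerase, had 7.54. For comparison, genes of mitochondrial ribosomal proteins had a summit within 1 kb at 68 of 78 (87.2%), with a median of 5.52, and within 10 kb at 75 (96.2%), on the same backgrounds of 52.5% and 70.7%.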

How the data were processed

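The 5 libraries are described with the results. Per the file headers, the authors called narrow peaks with MACS2 2.1.0.20140616 on each immunoprecipitate alone, against input of the same cells, with 51 bp tags extended to 250 bp, 1 tag per position and a q-value cutoff of 0.05. The submitters' processing notes name mm10 and Bowtie 0.12.8, and no header or label states how tags with several matches were handled. For each peak the authors deposited a pileup signal at the summit, its p- and q-values as −log10, and a fold enrichment, the ratio of (pileup + 1) to (input background + 1). The background was recovered from that ratio. Scripts in Python 3.11.15 with pandas 2.3.3 and SciPy 1.17.1 measured the distance from each summit to the nearer gene end. Distance assignment was tested on simulated data. Gene ends, start sites and promoters came from RefSeq GRCm38.p6. The gene table has no strand or exons. Start sites and strand come from the promoter table and cover 67 members.

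Members, lists and the naming rule were chosen with earlier results of these data known. Named with values were the 3 strongest members of each complex within 1 kb (all 4 of complex II), all members with no summit within 1 kb, complex I core subunits, isoform and subunit c genes, and the 3 strongest genes of each other list, except 1 gene that is not reported here. Further genes were named, and the CpG threshold and promoter-table start sites were chosen, after values were seen. Lists are described by counts and medians without tests, because each group has 1 library. A low tag number limits the precision of weak summits.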

Additional observations from a re-analysis of the deposited data

How the results depend on the processing

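Counts of members with a summit fell most under stricter peak thresholds. With a fold enrichment of at least 10, 4 members had a summit within 1 kb and 18 within 10 kb, against 62 and 75 with no such threshold. At 1 kb the share of members was then the smaller one, at 4.76% against 9.53% of all autosomal coding genes, but it rests on 4 members. At 10 kb the shares were 21.4% and 20.4%. With a −log10 q-value of at least 10, 37 members had a summit within 1 kb (44.0%, against 33.1%), and the median fold enrichment was 6.61 within 1 kb and 8.36 within 10 kb, against 7.85 and 8.73 over all autosomal coding genes. A 200 bp window gave 38 members, against 62 at 1 kb. Start ends alone gave a 10 kb median of 5.86, against 6.83. The other 8 settings for the 1 kb count and 9 for the 10 kb count stayed within 1.5 times the reported value. The start sites of the promoter table and the removal of the 2 members under 500 bp were added after seeing the data. No paired analysis was possible because each group has 1 library, and for the same reason no library could be left out.

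Each value rests on 1 library of overexpressed, tagged KLF5, so the spread between cultures is unknown. A summit near a gene end does not say which gene it belongs to. Weak summits such as that of Sdhd, with 18 tags, lie close to the peak-calling cutoff, so a member without a summit had none detectable at this depth.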

Other observations

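The 3 X-linked subunit genes, which the autosomal list leaves out, were read in the same way. Ndufa1, an accessory subunit gene of complex I, had 1 V5-KLF5 summit within 10 kb, with a fold enrichment of 7.57 at 57 bp from an end. Cox7b, the complex IV gene whose testis relative Cox7b2 had no summit within 10 kb, had a summit with a fold enrichment of 7.81 at 3882 bp. Ndufb11, another accessory subunit gene of complex I, had none within 10 kb, and the nearest summit lay 45.2 kb away.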
